A study of Solanum lycopersicum with 3 samples.

Results

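CRY1A and CRY2 are cryptochrome genes of tomato (Solanum lycopersicum), measured here in RNA from fruit pericarp. All probe sets whose platform or current gene symbol is CRY1A or CRY2 were taken, which gave 3 of the 10209 probe sets in the table, 2 for CRY1A (Entrez gene 544219) and 1 for CRY2 (Entrez gene 543596). They stand for 2 of the 803 genes with a name. The members were chosen by their measured values on these arrays, since both were among the 12 named genes lowest in the cell debris pellet relative to the direct phenol extract. That contrast is therefore a description, and so are the others, which share its arrays.

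The study asked which mRNAs are recovered from tomato pericarp by different extraction protocols, with attention to those of secreted and endomembrane proteins. RNA came from glasshouse-grown plants of cultivar Ailsa Craig, and 10 to 12 g of tissue went into each preparation. For Ex1, tissue was taken up in 1 ml per g of buffer with phenol and went straight into phenol and chloroform. For Ex2, it was taken up in 2 ml per g of a Tris buffer with sucrose, magnesium and much potassium chloride, and RNA was taken from the supernatant once debris had been spun out at 10000 x g for 15 min. The third preparation, called the pellet below, is RNA of that debris, extracted by the Ex2 method. Each preparation was hybridised to 1 Affymetrix tomato GeneChip, so every group is a single array, no p-value or standard error can be given, and the number of arrays limits the precision. Fruit age and the number of fruits or plants behind each preparation are not given in the sources used here.

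Cryptochromes are soluble flavoproteins that absorb blue and UV-A light. They share an ancestry with DNA photolyases but do not repair DNA, and their C-terminal extension carries the signal onward. In the pathway, worked out mainly in Arabidopsis, activated cryptochromes bind the COP1 ubiquitin ligase and keep it from marking factors such as HY5 for degradation, which lets light-induced genes be transcribed. In tomato, CRY1A acts in seedling responses to blue light, and overexpression of CRY2 raises flavonoid and lycopene content of the fruit. The proteins work in the nucleus and cytoplasm and do not pass through the endomembrane system.

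Both cryptochrome transcripts had their lowest signal in the pellet, where CRY2 was 3.05-fold below Ex1 and 3.02-fold below Ex2, and CRY1A 2.00-fold and 2.36-fold below them. CRY2 had an intensity of 465 on the Ex1 array, 460 on the Ex2 array and 152 on the pellet array. The Ex1 and Ex2 values are nearly the same and the pellet stands alone at the low end. The brighter CRY1A probe set read 870 in Ex1, 1026 in Ex2 and 434 in the pellet, so it too was lowest in the pellet, with Ex2 highest. The other CRY1A probe set, whose design matches several transcripts of the gene, read 266, 224 and 149. It kept the pellet lowest but placed Ex1 above Ex2. Intensities of different probe sets are not comparable with each other, so no order among the genes is given. The arrays compare RNA preparations and not cell populations. Differences in recovery, in cells of a type and in RNA per cell cannot be told apart.

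**Figure D1:**
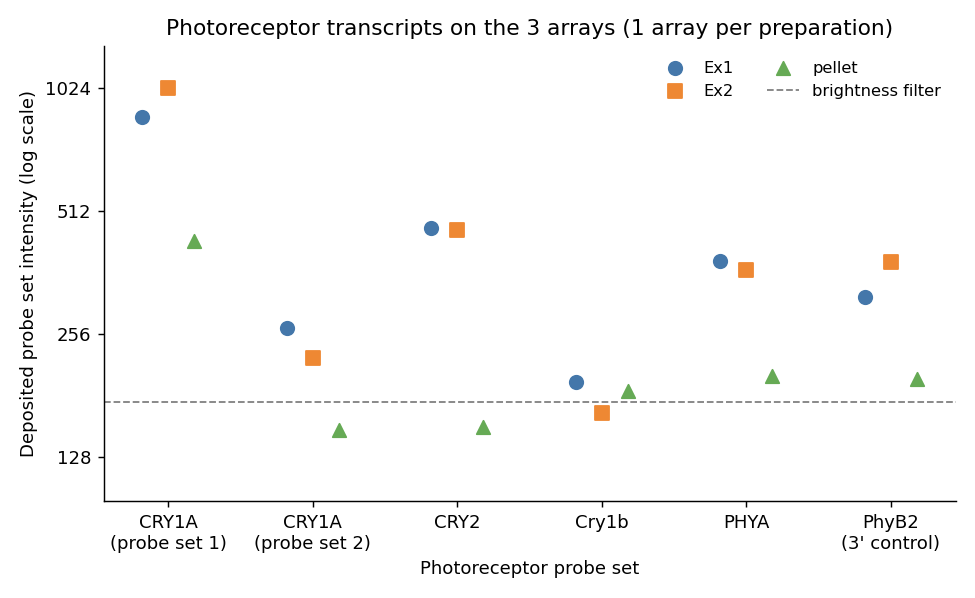
Deposited intensity (log scale) of each photoreceptor probe set on the Ex1, Ex2 and pellet arrays, 1 array each. The pellet is lowest for both CRY1A probe sets, CRY2, PHYA and the 3' control probe set of PhyB2, while the Cry1b points lie close together. The dashed line is the brightness filter at an intensity of 175.

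The comparison that drew attention to the pair is pellet minus Ex1, which sets the spun-out debris beside tissue extracted directly in phenol. On the scale of log2(intensity + 1) CRY2 differed by -1.61, or 3.05-fold lower in the pellet, and CRY1A by -1.002, or 2.00-fold lower. Only genes were compared that reached an intensity of 175, the median of the non-control values, on at least 1 of the arrays in question, and 471 named genes did. Of them, 12 were at least 2-fold lower in the pellet (2.55%) and 24 at least 2-fold higher (5.10%), with a median difference of 0. CRY2 was the third lowest and CRY1A the 12th. The pellet value of CRY2, 152, was below the intensity of 175, which CRY2 reached in Ex1. The gene next below CRY2 was WRKYIId, a WRKY transcription factor gene, at -2.11, and the gene next above it was NML1 at -1.45. CRY1A stood just inside the 2-fold limit, between the lipoxygenase gene loxC at -1.05 and GAI, the DELLA repressor of gibberellin signalling, at -0.98. The other CRY1A probe set gave -0.83. The gap of 0.17 between the CRY1A probe sets is close to the median gap of 0.18 found in this contrast among 25 genes with several bright probe sets, a spread within arrays and not between samples.

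In pellet minus Ex2, the debris against the supernatant it was spun out of, CRY2 was 3.02-fold lower in the pellet (-1.59) and the brighter CRY1A probe set 2.36-fold lower (-1.24). The other CRY1A probe set was at -0.58, and the mean of both came to -0.91, short of 2-fold. The probe sets of this gene therefore lay 0.66 apart, against a median gap of 0.38 among 24 genes. Being at least 2-fold lower in the pellet was common here, at 107 of 499 named genes (21.4%), against 47 that much higher (9.42%). CRY2 was 52nd and CRY1A 76th from the lowest, so neither was at the edge of the distribution.

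Ex2 minus Ex1, which sets the supernatant beside the direct phenol extract, placed the cryptochromes in the middle. CRY2 differed by -0.02, and CRY1A by 0.24 with the brighter probe set and -0.25 with the other, so no direction can be given for it. Over 495 named genes the median was -0.03. A difference of 2-fold or more upward in Ex2 was found for 100 of them (20.2%) and one downward for 23 (4.65%). CRY2 was 256th from the lowest and CRY1A 325th. Larger differences were found in this contrast for a pair of gene lists. The ethylene receptors and EIN2, which sit in the endoplasmic reticulum membrane, were at least 2-fold higher in Ex2 in 6 of 6 bright genes, with a median of 2.03. The beta-galactosidase genes TBG, whose products are secreted to the cell wall, were so in 5 of 6, with a median of 3.13. Relative to Ex1, both groups lay nearer to 0 in the pellet than CRY2 did, with medians of -0.13 over 5 receptor and EIN2 genes and 0.68 over 5 TBG genes.

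CRY2, and CRY1A by its brighter probe set, had a pellet value at least 2-fold below that of each other array. For CRY1A this holds narrowly, at -1.002 against Ex1. Its other probe set, at -0.83 against Ex1 and -0.58 against Ex2, did not have the pattern, nor did the mean of both probe sets, and against Ex1 only 2 of 7 alternative settings passed 2-fold. With 1 probe set, the brightest, standing for each gene, among 502 named genes bright on at least 1 array, 9 had it (1.79%). Besides the cryptochromes these were AML1, DREB3, MAPK10, NML1, TAO2, WRKYIId and loxC. Of these genes all but loxC had a pellet value below the brightness filter, as did CRY2. Over all probe sets the pattern was found in 166 of 5671 (2.93%). The pellet was simply the lowest array for 157 of the 502 named genes (31.3%). Because the pair was picked for 1 of these differences, its place in the count is a description.

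**Figure D2:**
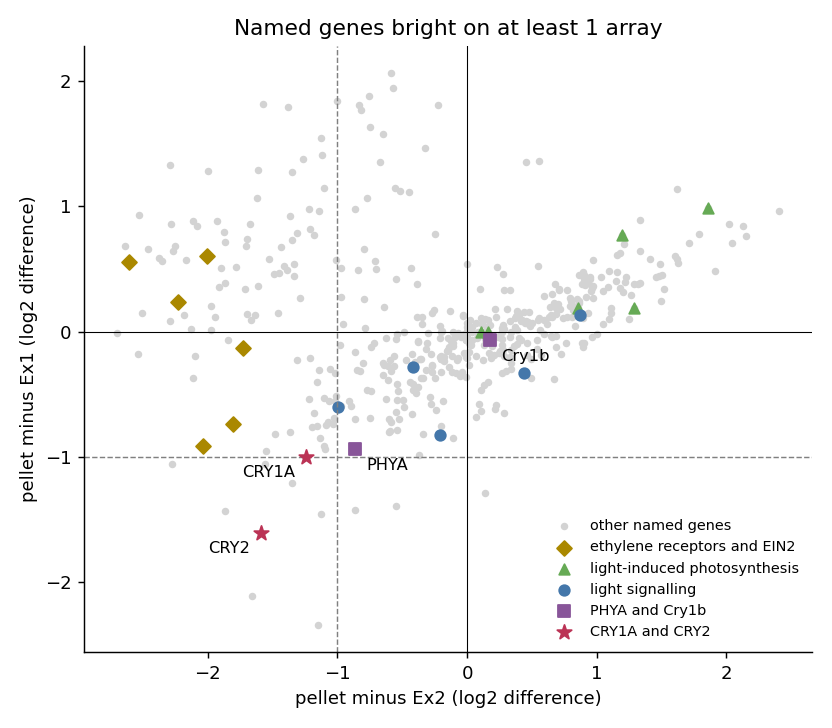
Log2 differences of the 502 named genes bright on at least 1 array, pellet minus Ex2 on the x axis and pellet minus Ex1 on the y axis. Dashed lines mark 2-fold lower in the pellet. CRY1A and CRY2 lie in the lower left corner with both differences below -1, PHYA lies just outside it, and Cry1b lies near the origin. The ethylene receptors and EIN2 are far to the left but spread around 0 on the y axis.

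Cry1b, a further cryptochrome gene named on the platform and related to CRY1A, did not have this pattern. It read 195 in Ex1, 165 in Ex2 and 187 in the pellet, which leaves the arrays within 1.19-fold of each other, with Ex2 lowest. Its pellet minus Ex1 difference was -0.07, 188th of 471 genes. These values lie near the brightness filter of 175. PHYA, the phytochrome that senses far-red light and also acts in blue, read 387 in Ex1, 368 in Ex2 and 202 in the pellet. Like CRY2 it was lowest in the pellet, at -0.94 for pellet minus Ex1 (15th lowest of 471) and -0.86 for pellet minus Ex2. Ex2 minus Ex1 was -0.07 for PHYA and -0.02 for CRY2. Both are smaller than the median gap of 0.22 between probe sets of 1 gene, so no order of these 2 arrays is given. The platform also carries control probe sets for the phytochrome PhyB2, which were looked at after the values were seen. The 3' set read 316 in Ex1, 384 in Ex2 and 199 in the pellet, a difference of -0.67 for pellet minus Ex1. The middle and 5' sets read 10.2 and 9.48 on all 3 arrays and so carry no information on the order.

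Downstream of the photoreceptors, 6 genes of the signalling list were measured, of which DET1 was too dim to compare. None of the other 5 was 2-fold apart in any comparison, against shares of all bright named genes of 2.55% lower and 5.10% higher for pellet minus Ex1, 21.4% and 9.42% for pellet minus Ex2, and 4.65% and 20.2% for Ex2 minus Ex1. COP1, the ubiquitin ligase that cryptochromes bind, read 900 in Ex1, 587 in Ex2 and 508 in the pellet. It was lower in the pellet than in Ex1, at -0.82. Its pellet minus Ex2 difference of -0.21 was smaller than the median gap of 0.38 in that contrast. No order of these 2 arrays is therefore given for COP1. DDB1, the gene of the tomato high pigment-1 mutant, read 624, 820 and 410. Its order of arrays was that of the brighter CRY1A probe set, with Ex2 highest and the pellet lowest, at -0.998 for pellet minus Ex2 (1.997-fold) and -0.60 for pellet minus Ex1. CUL4, the scaffold of the ligase that holds DDB1, read 517, 565 and 424, a smaller spread with the pellet lowest. Its Ex2 minus Ex1 difference of 0.13 was smaller than the median gap of 0.22. DET1, the gene of high pigment-2, read 95.5, 73.0 and 68.3 and so stayed below the filter. csn5, a subunit gene of the COP9 signalosome, read 332, 194 and 264. HY5, the bZIP activator that COP1 marks for degradation, read 1190 in Ex1, 715 in Ex2 and 1306 in the pellet. For pellet minus Ex2 it differed by 0.87. Its pellet minus Ex1 difference of 0.13 was smaller than the median gap of 0.18 between probe sets of 1 gene and changed sign with scaling on the spikes, so no order of these 2 arrays is given for HY5.

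Set together, 7 bright photoreceptor and signalling genes other than the members had a median of -0.33 for pellet minus Ex1, with 6 of 7 below 0 and 0 past 2-fold. Over all 471 named genes the median was 0 and 223 were below 0 (47.3%). For Ex2 minus Ex1 the 7 had a median of -0.25 and for pellet minus Ex2 one of -0.21, again with 0 past 2-fold. For these 2 comparisons the shares of all bright named genes past 2-fold were 20.2% higher with 4.65% lower, and 9.42% higher with 21.4% lower.

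**Figure D3:**
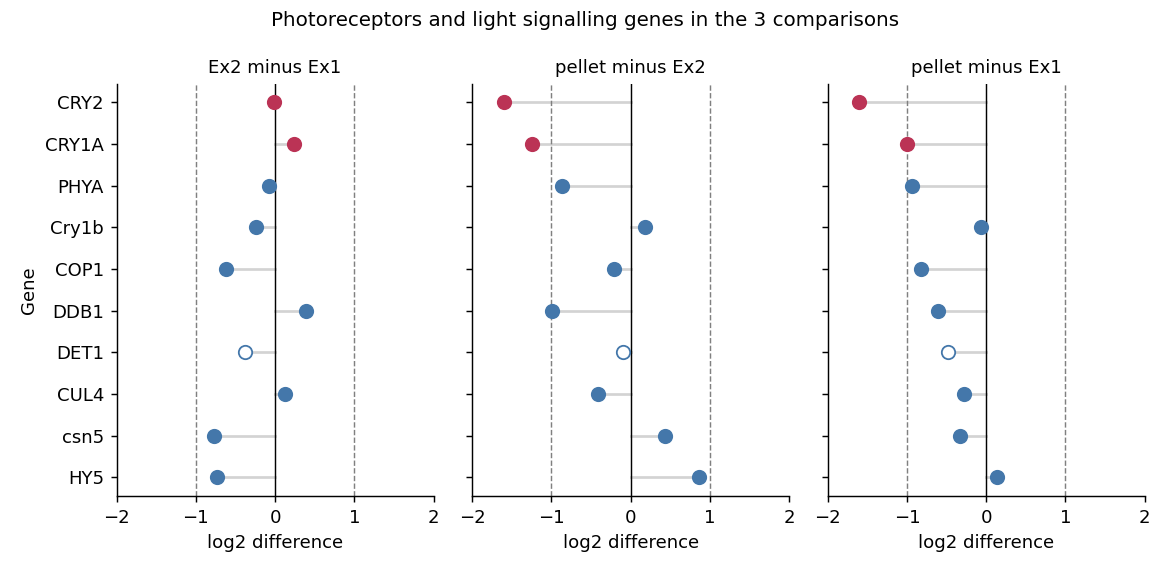
Log2 difference of each photoreceptor and light signalling gene in the 3 comparisons, CRY1A and CRY2 in red and DET1, too dim to compare, as an open circle. Dashed lines mark 2-fold. In pellet minus Ex1, CRY2 at -1.61 and CRY1A at -1.002 lie furthest left, followed by PHYA and COP1, and HY5 alone lies above 0, at 0.13, by less than the gap of 0.18 between probe sets of 1 gene and with a sign that turns when the spikes set the scale.

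Genes of processes that light induces were looked at as well. The arrays differ in how RNA was extracted from pericarp, so output of the pathway was not tested. Of 8 nuclear photosynthesis genes 6 were bright. For pellet minus Ex1, 0 of the 6 lay below 0 (median 0.18), against 47.3% of all bright named genes. PsbQ of photosystem II was at 0.99 and the chlorophyll-binding protein gene CAB4 at 0.77, while PSBO and PSBP had exactly equal deposited values on both arrays. The chalcone synthase genes CHS1 and CHS2, which start flavonoid synthesis, differed by 0.11 and -0.12, and DFR and ANT1 were too dim. Of 11 carotenoid pathway genes 8 were bright, all 8 below 0 (median -0.28), with CrtR-b1 only at -0.003. Of the 8, 0 were past 2-fold, against 2.55% of all bright named genes lower and 5.10% higher. The lowest of these were DXS, the entry enzyme of plastid isoprenoid synthesis, at -0.82 and the phytoene desaturase gene PDS at -0.74. No gene named in these 3 lists was as far below Ex1 as CRY1A or CRY2, which were chosen for low values in this contrast. Among 23 bright transcription factor genes the median was -0.07. At least 2-fold lower in the pellet were 3 of the 23, against 2.55% of all bright named genes, namely DREB3 at -2.34, WRKYIId at -2.11 and LOC543600 (TGA2.2) at -1.43.

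The named genes most like each cryptochrome were found by the Euclidean distance over the 3 log2 differences, among the 502 bright genes. Nearest to CRY1A was SPY, known from Arabidopsis as a repressor of gibberellin signalling, at a distance of 0.17, with values of 543 in Ex1, 620 in Ex2 and 288 in the pellet. It was followed by LOC543567 (0.17), the ethylene-response kinase gene CTR1 (0.19), AML1 (0.25), the RNA polymerase II subunit gene RPB2 (0.31) and BL2 (0.31). All 6 had Ex2 highest and the pellet lowest, as did the brighter CRY1A probe set. The distance over these same differences selects for that order. For SPY, LOC543567 and AML1 Ex2 minus Ex1 was 0.19, 0.16 and 0.14, below the median gap of 0.22 between probe sets of 1 gene. For CTR1, RPB2 and BL2 that difference was above the gap, though smaller than the opposite shift from scaling on the spikes (-1.19). CRY2 lay further from its nearest genes. Its nearest were AML1 at 0.50, the MAP kinase gene MAPK10 at 0.56, NML1 at 0.58, WRKYIId at 0.66, CRY1A at 0.75 and the aldehyde oxidase gene TAO2 at 0.76. CRY1A was thus the fifth nearest gene to CRY2, whereas CRY2 was only 32nd among the neighbours of CRY1A. Pellet minus Ex1, by which both were chosen, is 1 of the 3 differences in the distance. Their closeness and the larger distances of CRY2 are therefore descriptions. CTR1 belongs to the soluble ethylene signalling genes (CTR kinases and EIL factors). Their 6 bright members had a median of -0.63 for pellet minus Ex1. All 6 were below 0, against 47.3% of all bright named genes.

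Ripe fruit markers were bright on all arrays, with 5 of 7 measured (PG2, E8, EXP1, NP24-I and Psy1) and a summed intensity of 46511 in Ex1, 60665 in Ex2 and 51381 in the pellet. The members of this sum were unlike. For Ex2 minus Ex1, EXP1 and NP24-I differed by 1.55 and 1.03, PG2 by 0.29, and E8 and Psy1 each by -0.02. The 3 measured epidermal lipid transfer genes of 4 listed summed to 2365, 7698 and 6672, and each was at least 2-fold higher in the pellet than in Ex1, against 5.10% of all bright named genes. The green tissue marker CAB4, 1 of 4 listed, read 306, 227 and 522, and no vascular or seed marker was measured. The actin 3' to 5' ratios, in the order Ex1, Ex2 and pellet, were 1.20, 1.71 and 1.35, and those of EF1a 2.62, 3.27 and 2.81. In the same order the 25S ribosomal RNA control read 1809, 367 and 568, and the 17S control 55.3, 23.2 and 23.9. The part of these differences in the cryptochrome values was not tested. Nor was it tested whether the marker values reflect tissue composition or mRNA recovery.

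Directions depend on how the arrays are scaled. With scaling on the bacterial hybridisation spikes the median over non-control probe sets moved by -1.19 (Ex2 minus Ex1), 0.55 (pellet minus Ex2) and -0.64 (pellet minus Ex1). When the genes RPL3 and RPL8, of ribosomal proteins, set the scale it moved by 0.55, -0.44 and 0.11. CRY2 was at least 2-fold lower in the pellet under all 7 alternatives run, at -2.25 to -1.50 against Ex1 and -2.47 to -1.04 against Ex2. The mean of probe sets, 1 of the 7, could not change CRY2, which has only 1 probe set. CRY1A was below 0 in both comparisons under all 7, at -1.65 to -0.89 and -2.12 to -0.69. It passed 2-fold in 2 of the 7 against Ex1 and 5 of the 7 against Ex2. Other genes with differences smaller than an opposite shift change sign, as HY5 does for pellet minus Ex1 and DDB1 for Ex2 minus Ex1 with the spikes, and the pellet minus Ex1 median of the photosynthesis genes became -0.46 there. The direction of Ex2 minus Ex1 turned for both genes with the scaling, and for CRY1A also with the mean of its probe sets.

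**Figure D4:**
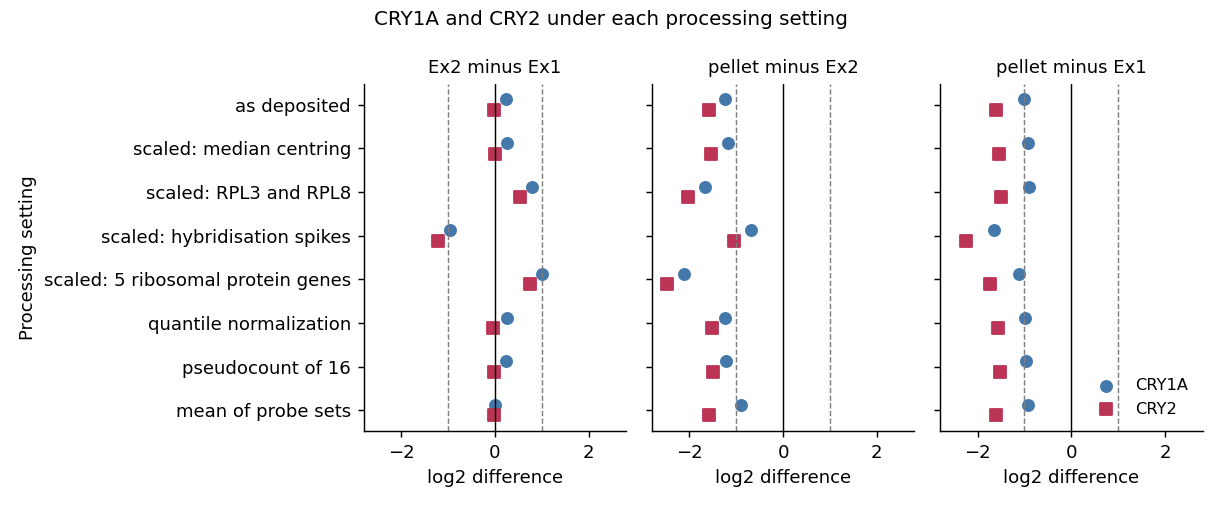
Log2 difference of CRY1A (circles) and CRY2 (squares) as deposited and under 7 alternatives, for the 3 comparisons. Dashed lines mark 2-fold. Both genes stay left of 0 in the pellet comparisons, CRY2 always beyond 2-fold, and both cross 0 in Ex2 minus Ex1.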

How the data were processed

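The authors deposited 1 intensity per probe set and array, linear by its range. GCOS 5.0 and RMA are named, per the submitters' processing notes, without order or parameters. Array medians over the 10038 non-control probe sets were 179 (Ex1), 177 (Ex2) and 170.0 (pellet). Names came from the platform annotation, updated by Entrez ID through the RefSeq gene table of SLM_r2.1. A single name was found for 909 probe sets (885 with an ID in that table), several for 0 and none for 9129.

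Differences were taken on log2(intensity + 1), which understates those of dim genes. Of several probe sets of a gene the one brightest by mean was used, and for CRY1A both are given. The genes named are the members, the measured pathway genes, the 6 nearest in pattern to each member, and its neighbours in the order of pellet minus Ex1. PhyB2 and the genes sharing the pellet pattern were added afterwards. The members and lists were chosen with earlier results of these data known. GPA1, a G protein gene once called TGA1, was kept out of the transcription factors. Protein lengths and sequences were not used here. The alternatives were 4 scalings, 1 of them added after seeing the data, quantile normalization, a pseudocount of 16, other filters and thresholds (1.5-fold and 3-fold), mean probe sets, and no cross-hybridising designs. The code was tested on simulated data. The software was pandas 2.3.3, NumPy 2.4.6 and matplotlib 3.10.9 under Python 3.11.15.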

Additional observations from a re-analysis of the deposited data

How the results depend on the processing

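No paired analysis was possible because each group holds 1 array and no test was made. An alternative counts as a move where the value shifted by more than the median gap between probe sets of 1 gene in that comparison. Median centring, quantile normalization and the pseudocount of 16 moved none of the cryptochrome values by that much, though all 3 took CRY1A below 2-fold in pellet minus Ex1. With scaling on the spikes, Ex2 minus Ex1 was -0.96 for CRY1A and -1.21 for CRY2, pellet minus Ex2 -0.69 and -1.04, and pellet minus Ex1 -1.65 and -2.25. With scaling on RPL3 and RPL8, Ex2 minus Ex1 was 0.78 for CRY1A and 0.53 for CRY2, and pellet minus Ex2 -1.68 and -2.03. With scaling on 5 ribosomal protein genes, chosen after seeing the data, these were 1.00 and 0.74, and -2.12 and -2.47. The mean of the CRY1A probe sets gave -0.0066 for Ex2 minus Ex1.

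The median of the 4 photoreceptors, the members among them, was -0.05 for Ex2 minus Ex1, and became -1.24 with the spikes, 0.50 with RPL3 and RPL8, 0.71 with 5 ribosomal genes, and 0.24 with the upper-quartile filter, which left CRY1A alone. For pellet minus Ex2 it was -1.05, and -0.50, -1.49 and -1.93 with these scalings in the same order. For pellet minus Ex1 it was -0.97, and -1.61 with the spikes. The signalling genes' median was -0.61 for Ex2 minus Ex1 (-1.81, -0.068 and 0.15 with these scalings), -0.21 for pellet minus Ex2 (0.34, -0.65 and -1.09), and -0.33 for pellet minus Ex1 (-0.98 with the spikes).

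Counts of named genes at least 2-fold lower in the pellet than in Ex1 went from 12 to 87 with the spikes, 19 with 5 ribosomal genes and 5 with the upper-quartile filter. Those higher went from 24 to 8 with the spikes and 12 with that filter. For pellet minus Ex2, 107 lower became 55 with the spikes, 240 with 5 ribosomal genes and 66 with that filter, and 47 higher became 130 with the spikes, 19 with RPL3 and RPL8 and 6 with 5 ribosomal genes. For Ex2 minus Ex1, 100 higher became 50 with the spikes and 170 with 5 ribosomal genes, and 23 lower became 320 with the spikes, 0 with either ribosomal scaling and 14 with that filter. At 1.5-fold and 3-fold the 12 became 52 and 3. Of the 6 genes nearest to CRY1A, 3 were kept with no filter, 2 with the upper-quartile filter and 1 when levels entered the distance. For CRY2, too dim for the upper-quartile filter, 5 and 2 were kept with no filter and with levels.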

Other observations

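SPY, the gene nearest in pattern to CRY1A, differed by -0.91 for pellet minus Ex1 and -1.10 for pellet minus Ex2. GAI, the gene next to CRY1A in the order of pellet minus Ex1, was singled out after its values were seen. It had intensities of 390 (Ex1), 255 (Ex2) and 197 (pellet), without the high Ex2 value of the brighter CRY1A probe set. Its pellet minus Ex2 difference of -0.37 was smaller than the median gap of 0.38, so these arrays are not ordered for GAI.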
